A study of Gallus gallus with 6 samples.

Results

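Toll-like receptors are membrane proteins with which cells of the innate immune system recognise molecules common to microbes. All 10 genes of the chicken family were measured in the ileum, the hindmost stretch of small intestine, among 17623 genes in all. Of these, 9 were found by a symbol that starts with TLR and a digit. TLR1B stands in the table under the symbol chTLR1-type2 and was found by its NCBI gene number, and TLR2A stands under TLR2-1. All 10 passed a minimum of 1 for the mean FPKM of both groups, which 12633 genes did. FPKM is a level scaled to transcript length and sequencing depth, so genes can be ordered by it.

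The study compared male Taiping chickens aged 2 months. The control group (CT, 3 libraries) received a basal diet of corn and soybean with 0 mL of probiotic per litre. The probiotic group (MP, 3 libraries) received the same diet with 2 mL of probiotic per litre of drinking water, and its composition is not stated in the labels. The table holds 1 mean per group, so every value below is the authors' mean of 3 libraries, no spread between birds can be given, and no difference was tested. Nor do the labels say whether a library came from a single bird. Mean total counts were 17150865 per library in CT and 15928865 in MP. Epithelial genes were abundant under the ileum label, with EPCAM at FPKM 1016 in CT and 1032 in MP and the microvillus gene VIL1 at 325 and 405.

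Each Toll-like receptor joins an ectodomain of leucine-rich repeats, which meets the microbial ligand, to a cytoplasmic TIR domain, which recruits the adaptors MYD88 or TICAM1. Kinases and ubiquitin ligases then release NF-kB and interferon regulatory factors, which switch on cytokine genes and also the inhibitors that end the signal. In the gut the family meets both resident and invading bacteria, and it is carried by epithelial cells as well as by macrophages, dendritic cells, heterophils and lymphocytes. Chickens lack TLR9, use TLR21 for DNA with unmethylated CpG and have TLR15, which mammals do not. Their TLR1 and TLR2 genes are each present as a pair of copies.

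The family was transcribed at low to middling levels. In CT the 10 genes lay between FPKM 1.07 and 9.85 with a median of 4.94, and in MP between 1.01 and 10.5 with a median of 3.77. These levels stood between the percentiles 28.8 and 57.6 of all genes in CT, and between 28.6 and 60.2 in MP. The counts behind them, summed over the 3 libraries, ran from 167 to 1685 in CT and from 144 to 1585 in MP. TLR1B, TLR21 and TLR3 stood at the top in both groups, and TLR2B and TLR15 at the bottom. By 95% counting intervals, 3 of the 9 neighbouring pairs in the CT order overlapped (TLR1B with TLR21, TLR7 with TLR1A, and TLR2A with TLR4). In MP 4 did (TLR1B with TLR21, TLR2A with TLR7, TLR7 with TLR1A, and TLR4 with TLR5). TLR2A stood above TLR7 and TLR1A there, but its interval of 3.98 to 4.64 overlapped theirs (3.49 to 4.06 and 3.46 to 4.08). These intervals (exact Poisson) cover counting error only, since amplified reads are not separate molecules and the birds' own variation does not enter them.

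**Figure D1:**
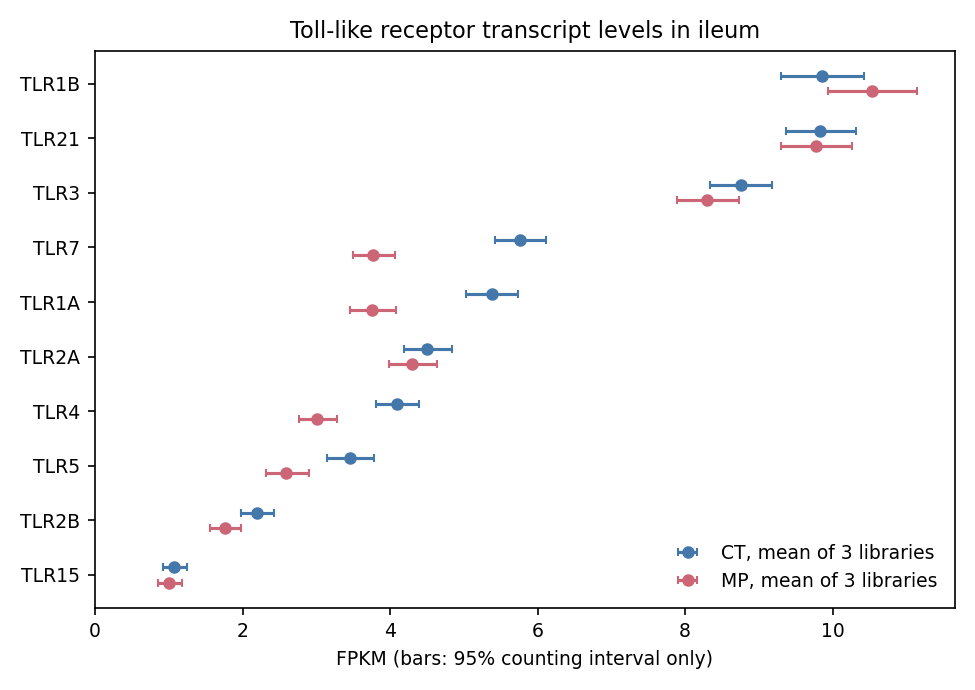
FPKM of the 10 Toll-like receptor genes (x axis) in the CT and MP means of 3 libraries each, ordered by the CT level, with bars for the 95% counting interval only. The bars of the 2 groups are apart for TLR7, TLR1A, TLR4, TLR5 and TLR2B, each lower in MP, and overlap for the other genes.

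The MP mean was lower for part of the family and close to CT for the rest. TLR7, TLR1A, TLR4, TLR5 and TLR2B lay 34.6%, 30.1%, 26.4%, 24.9% and 19.9% below CT in FPKM. TLR15, TLR3, TLR2A and TLR21 lay 6.15%, 5.14%, 4.59% and 0.641% below, and TLR1B was the 1 gene above CT. On the log2(FPKM + 1) scale, which understates the difference of low genes, 0 of 10 differed by 1.5-fold in either direction, where 1.81% of all genes past the minimum were lower and 2.68% higher by that much. With a pseudocount of 0.1 in place of 1, TLR7 passed 1.5-fold (-0.60 in log2). At a smaller threshold of FPKM + 1 at least 20% lower or 25% higher, 3 of 10 were lower (TLR7, TLR1A and TLR4) and 0 higher, beside 11.0% lower and 8.15% higher among all genes. Among the 5263 genes with a mean FPKM from 1 to 10, 15.6% were lower and 8.38% higher by that threshold. That 9 of 10 lay below CT is to be read against the 62.4% of all genes and 65.2% of genes at FPKM 1 to 10 that did so. With median-of-ratios scaling, which brings the median gene to no difference, 6 of 10 lay below.

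The median difference of the family was -0.14 in log2, beside -0.07 for all genes past the minimum (quartiles -0.20 and 0.09) and -0.09 for genes at FPKM 1 to 10. Summed FPKM over the 10 genes was 54.9 in CT and 48.8 in MP. The summed count ratio, MP to CT after division by the depth ratio of 0.929, was 0.886 with a counting interval of 0.859 to 0.914 (exact, 95%, conditional on both counts). The median count ratio over all genes was 0.950. Intervals lay below 1 for 5 of the 10 receptors and above 1 for 0, and they did so for 43.3% and 23.5% of all genes. In bulk tissue, fewer cells of a type and less RNA per cell cannot be told apart.

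**Figure D2:**
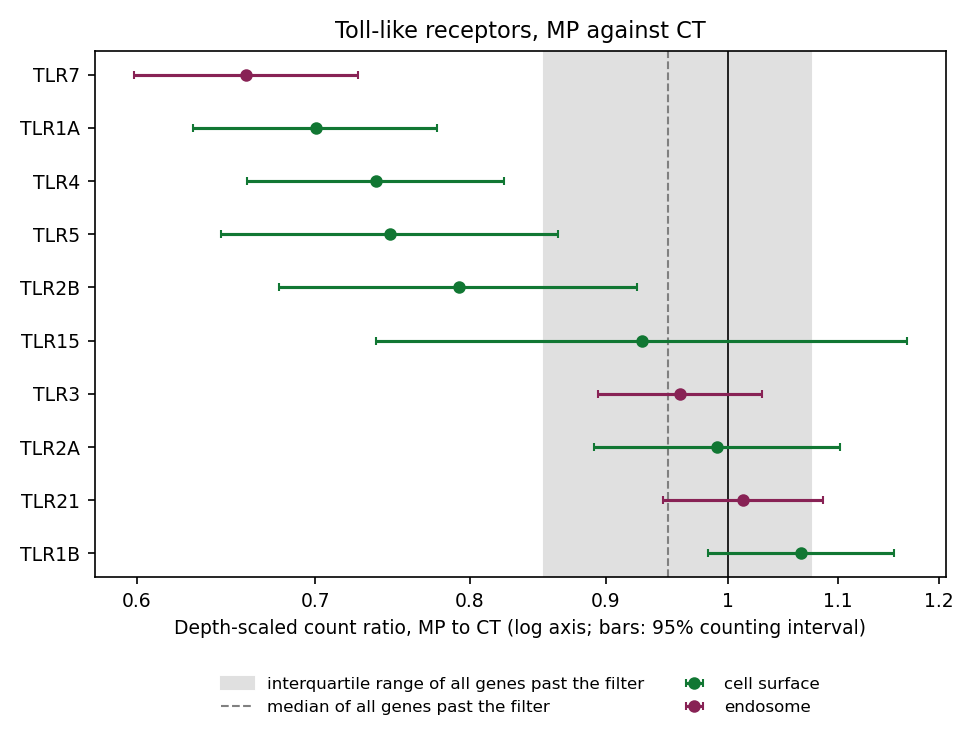
Depth-scaled count ratio of MP to CT (log axis) for each Toll-like receptor, with bars for the 95% counting interval, coloured by where the receptor is known to act. The grey band is the interquartile range of all genes past the minimum (0.853 to 1.07) and the dashed line their median (0.950). TLR7, TLR1A, TLR4, TLR5 and TLR2B stand left of the band.

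Among receptors of nucleic acids, which act in endosomes, TLR7 was lower in the MP mean, while TLR3 and TLR21 lay close to CT. TLR7 (ENSGALG00000016590), which recognises single-stranded RNA, had FPKM 5.76 in the CT mean and 3.77 in the MP mean. It drew 369 counts per library in CT against 226 in MP, so that the depth-scaled ratio was 0.659 (0.598 to 0.726). This was the largest difference in the family, -0.50 in log2, and 3.16% of all genes past the minimum lay at or below it. TLR3 (ENSGALG00000013468), a receptor of double-stranded RNA, was at FPKM 8.75 and 8.30 in CT and MP, with 0.959 (0.894 to 1.03) as its count ratio. TLR21 (ENSGALG00000033068), the CpG DNA receptor, was at 9.83 and 9.77, and its count ratio was 1.01 (0.945 to 1.09). The counting intervals of TLR3 and TLR21 include equality, and with median-of-ratios scaling both lay above CT (0.0015 and 0.06 in log2). In CT these 3 genes made up 44.3% of the summed FPKM of the family, and in MP 44.8%.

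Among receptors of bacterial surface molecules, TLR4 and TLR5 were lower in the MP mean. TLR4 (ENSGALG00000007001), the lipopolysaccharide receptor, had FPKM 4.09 in CT and 3.01 in MP. Its mean counts of 263 and 180 gave a count ratio of 0.738 (0.660 to 0.824). TLR5 (ENSGALG00000009392), which binds the bacterial flagellin, had FPKM 3.45 in CT and 2.59 in MP, and mean counts of 152 and 106. Its count ratio was 0.747 (0.645 to 0.864). In log2(FPKM + 1) the differences of TLR4 and TLR5 were -0.34 and -0.31, and 9.29% and 12.0% of all genes lay at or below them. TLR15 (ENSGALG00000008166), a receptor that birds and reptiles have and that reacts to microbial proteases, was the lowest of the family at FPKM 1.07 in CT and 1.01 in MP. With mean counts of 55.7 and 48.0 its count ratio of 0.928 had an interval of 0.738 to 1.17, which includes equality and reaches down to the value of TLR4.

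The copies of TLR1 and TLR2 act in pairs, a TLR2 with a TLR1, on bacterial lipoproteins. TLR1B (ENSGALG00000027093) had FPKM 9.85 in CT and 10.5 in MP, the highest level of the family in both groups, and its count ratio was 1.07 (0.983 to 1.15). TLR1A (ENSGALG00000017485) had 5.38 and 3.76, and its count ratio was 0.700 (0.630 to 0.778). TLR1B therefore stood 1.83 times above TLR1A in CT and 2.80 times above it in MP. TLR2A (ENSGALG00000034722) was at FPKM 4.51 and 4.30, and its count ratio was 0.991 (0.891 to 1.10). TLR2B (ENSGALG00000009239) was at 2.20 and 1.76, with a ratio of 0.793 (0.679 to 0.925). In each pair the copy with the lower level in CT was also the one with the lower count ratio.

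The values of single copies are uncertain, because reads can be shared between them. The authors' mean count multiplied by 3 was not whole in either group (within 0.002) for TLR1A, TLR1B, TLR2A and TLR2B, and whole in both for the other 6 receptors. Of all genes past the minimum, 8.93% were not whole in both groups. The count of these 4 genes was thus an estimate in at least 1 library of each group, and how many reads were divided cannot be read from the means. In RefSeq's chicken assembly GRCg7b the TLR1 copies are neighbours on chromosome 4, and so are the TLR2 copies. The summed count of a pair does not depend on how reads are divided within it, whereas the summed FPKM does, since the copies differ in counts per FPKM unit. TLR1A and TLR1B together summed to FPKM 15.2 and 14.3, with 0.910 (0.854 to 0.969) as the ratio of summed counts. TLR2A and TLR2B together had 6.70 and 6.06, with a ratio of 0.921 (0.844 to 1.005). Both sums lay nearer to the median gene than TLR1A or TLR2B alone. A ratio of summed counts must lie between those of its copies, so this does not show how reads were divided. The 6 receptors with whole counts had a summed count ratio of 0.871 (0.838 to 0.905).

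Transcript length moved with the difference over all genes. The number of counts per FPKM unit follows transcript length, and over 10 classes of equal size ordered by it the median log2 difference was 0.12 in class 1 and -0.15 in class 10. TLR1B fell in class 6, TLR5 in class 7, TLR1A, TLR2A and TLR15 in class 8, and TLR3, TLR4, TLR7, TLR21 and TLR2B in class 9. In class 9 the median was -0.12 and 77.2% of genes lay below CT, and in class 8 the median was -0.11 and the share 72.8%. Within their own class, 3.01% of genes lay at or below the difference of TLR7 and 5.30% at or below that of TLR1A. For TLR4 and TLR5 the share was 10.5% each. For TLR2B it was 29.1%, and 23.9% of all genes past the minimum lay at or below its difference. TLR21, TLR3, TLR2A and TLR15 lay above the median of their class. The part of length in the receptors' differences was not tested.

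**Figure D3:**
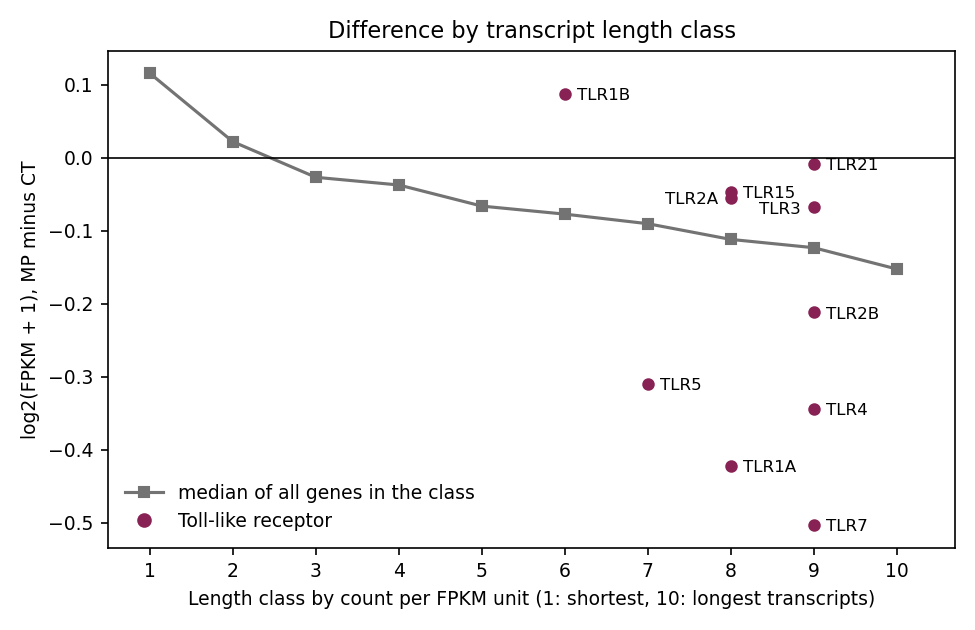
Difference of MP minus CT in log2(FPKM + 1) (y axis) over 10 length classes of genes by count per FPKM unit (x axis), with the median of all genes in each class as grey squares and each Toll-like receptor as a point. The grey line goes from 0.12 to -0.15; TLR7, TLR1A, TLR4, TLR5 and TLR2B lie below it and the other 5 receptors above.

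Markers of the cells that can carry these receptors did not all lie on the same side. Their counts below CT are to be read against the 62.4% of all genes that lay below it. Of 15 macrophage and dendritic cell genes past the minimum, 8 were below CT (median -0.04), and their summed FPKM was 840 in CT and 860 in MP. CTSS, a protease of antigen-presenting cells, gave 422 and 455 of this, and the other 14 genes summed to 418 and 405. Within that list CSF1R, the receptor for the macrophage growth factor, was at 40.8 and 32.8, TIMD4, a receptor for dying cells, at 15.97 and 12.1, and XCR1, a receptor of cross-presenting dendritic cells, at 5.98 and 4.57. The complement genes C1QA (87.0 and 95.4) and C1QC (33.7 and 37.8) were higher in MP. B cell genes were below CT for 8 of 11 (median -0.07), with a summed FPKM of 98.5 and 97.9, and T cell genes for 9 of 9 (median -0.23), with 678 and 571. Endothelial and smooth muscle genes were below CT for 7 of 7 each, with summed FPKM of 124 and 100.2, and of 2668 and 1749.

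Counts above CT are likewise to be read against the 62.4% of all genes that lay below it. Epithelial genes were above CT for 9 of 11 entries (median 0.16), with 3410 and 3781. CDX2 is in that list as separate entries, at 22.0 and 34.7 and at 53.0 and 57.2. Of 12 heterophil genes, 7 passed the minimum, and 5 of them were above CT. Below CT were CSF3R, at 23.8 and 21.7, and NCF4, at 3.83 and 3.17. Of those above, S100A9 was close to CT at 3.283 and 3.293, MMP9 was at 2.84 and 4.41, and NCF1 at 8.56 and 9.63. Of the list's summed FPKM of 127 and 148, the lysozyme gene LYZ, which other cells express as well, gave 77.1 and 81.1, and LYG2 gave 4.40 and 21.9. The heterophil granule genes AvBD1, AvBD2, CATHL1 and CATHL2 were all under the minimum, at 0.82 or less in both groups. Genes of thrombocytes, the nucleated platelets of birds, which carry Toll-like receptors too, summed to 12.7 and 12.0. Of the 4 past the minimum 2 lay on each side of CT in FPKM (median -0.01). F13A1 was at 2.43 and 1.24 and ITGB3 at 4.47 and 3.57, while TUBB1 was at 3.73 and 4.79 and GP1BB at 1.40 and 1.82. The count ratio of GP1BB was 1.06 with an interval of 0.847 to 1.33, which includes equality. The platelet glycoprotein gene GP9 was near 0, at 0.12 and 0.08. The part of these cell types in the receptors' differences was not tested.

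**Figure D4:**
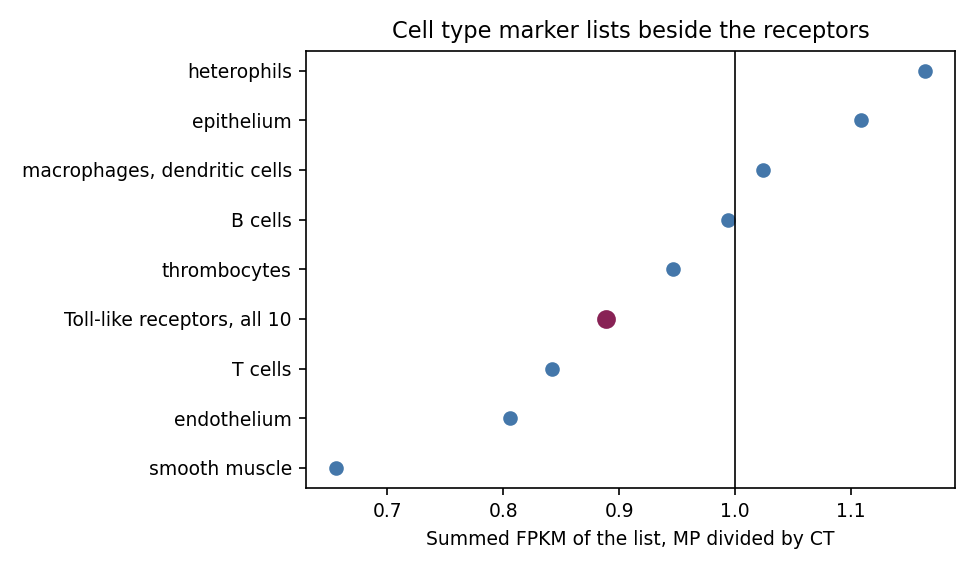
Summed FPKM of each cell type marker list in MP divided by that in CT (x axis), with the 10 Toll-like receptors as the larger point. Smooth muscle (0.655), endothelium (0.806) and T cells (0.842) stand below the receptors (0.889), and B cells (0.994) and macrophages and dendritic cells (1.02, and 0.970 without CTSS) above them.

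Accessory proteins and adaptors were more abundant than the receptors, with a median FPKM of 24.9 and 21.6 in CT. Of 10 accessory genes 7 were below CT (median -0.16), beside 62.4% of all genes. None, 0 of 10, reached 1.5-fold on the log2(FPKM + 1) scale, beside 1.81% of all genes lower and 2.68% higher by that much. LY96, which encodes the MD-2 protein that holds lipopolysaccharide for TLR4, was at 13.2 in CT and 11.4 in MP, and CD14, which hands it over, at 2.26 and 2.03. CD180, a relative of TLR4 on B cells, was at 1.70 and 1.09, and at this low level the scale understates its count ratio of 0.643 (0.508 to 0.810). Its partner LY86 was at 36.4 and 39.3. TRIL, a coreceptor known from mammals, was at 11.3 and 9.23, and the scavenger receptor CD36 at 31.9 and 26.3. UNC93B1, which in mammals escorts the nucleic acid receptors to endosomes, was higher, at 17.8 and 22.3, and its count ratio was 1.24 (1.17 to 1.32). It lay on the other side of CT from TLR7, which belongs to that class, while TLR3 and TLR21 of the same class lay close to CT.

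Of 5 adaptor genes past the minimum 3 were below CT (median -0.10), beside 62.4% of all genes. MYD88, the adaptor that most of the family shares, was at 29.7 and 31.4, and its count ratio was 1.07 (1.03 to 1.10). TICAM1, the adaptor of TLR3, was at 19.8 and 16.6, a ratio of 0.840 (0.794 to 0.889). TIRAP, which brings MYD88 to the membrane, was at 25.8 and 23.8, and PIK3AP1, which links the receptors to PI3 kinase, at 21.6 and 20.0. None of the adaptors reached 1.5-fold, beside 1.81% of all genes lower and 2.68% higher by that much.

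Of 13 genes of kinases, ubiquitin ligases and proteins that work with them, 11 were below CT (median -0.17), and 8 with median-of-ratios scaling. Without that scaling 62.4% of all genes lay below CT. IRAK4, the first kinase on MYD88, was at 10.5 and 9.16, and the ligase gene TRAF6 at 18.4 and 16.3. TAB2 (36.1 and 28.6) and TAB3 (24.8 and 20.4), which bind the ubiquitin chains that TRAF6 makes, and UBE2N (33.4 and 27.2), the enzyme that supplies it with ubiquitin, were also lower in the MP mean, although UBE2N had a count ratio of 0.947 (0.909 to 0.986). IKBKE, a kinase for interferon regulatory factors, was higher at 9.03 and 10.9. None of the 13 reached 1.5-fold, where only 1.81% of all genes were lower and 2.68% higher by that much.

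Genes at the end of the pathway lay more often above CT. Of 13 induced cytokine and enzyme entries past the minimum 10 were above CT, with a median of 0.41, where 62.4% of all genes lay below. CCL4 is in that count as separate entries, at FPKM 15.1 and 14.6 and at 6.90 and 8.30 in CT and MP. On the log2(FPKM + 1) scale 5 of the 13 were higher by 1.5-fold and 0 lower. Among all genes 2.68% were higher and 1.81% lower by that much. The list was chosen with earlier results of these data known, so this comparison is no test of it. IL1B, the cytokine gene for interleukin 1 beta, had FPKM 1.13 and 2.47, and its count ratio was 2.17 (1.61 to 2.95). The chemokine gene IL8L1 went from 0.81 to 1.92, beside IL8 at 1.22 and 6.41 and CCL20 at 11.0 and 48.1. IL8L1 was under 1 in CT and passed the minimum only through its MP level. The fifth was the chemokine gene CCL5, at 14.9 and 24.1. NOS2, the inducible nitric oxide synthase, was at 4.57 and 3.41. TNFSF15, a cytokine of the tumour necrosis factor family, was at 5.58 and 8.79, just under 1.5-fold on that scale, with a count ratio of 1.57 (1.41 to 1.74). These last 3 genes were named after their values were seen. IL6 and CSF2 were at FPKM 0.05 or below in both groups. The difference moved with transcript length over all genes, and the induced genes differ in counts per FPKM unit. In CT the counts per library were 86.3 for CCL5 at FPKM 14.9, 157 for CCL20 at 11.0 and 350 for NOS2 at 4.57. They were 26.0 for IL8 at 1.22, 22.3 for IL1B at 1.13, 20.0 for IL8L1 at 0.81 and 193 for TNFSF15 at 5.58. In length class 1 of 10, the shortest, the median difference was 0.12 and 37.0% of all genes lay below CT. In class 10 the median was -0.15 and the share 82.4%. CCL5 and CCL20 fall in class 1 and NOS2 in class 10. IL8 and IL1B fall in class 2, where the median was 0.02 and 46.0% of genes lay below CT. IL8L1 falls in class 3 (median -0.03, 54.2% below) and TNFSF15 in class 5 (median -0.07, 63.8% below). The part of length in these differences was not tested.

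Inhibitors were above CT for 9 of 14, with a median of 0.08, where 62.4% of all genes lay below CT. Below CT were 5, or 7 with equal FPKM totals, 6 with library totals and 3 with median-of-ratios scaling. In the same order of scalings, the median difference of all genes was -0.12, -0.07 and 3.35e-05. Higher by 1.5-fold were 2, and 0 of the 14 were lower by that much, where 2.68% of all genes were higher and 1.81% lower. This list, like the others, was chosen with earlier results of these data known, so the comparison is no test. NFKBIZ, counted here as an atypical member of the NF-kB inhibitor family, is in mammals itself induced through these receptors. It was at 16.7 and 34.9, and its count ratio was 2.07 (1.98 to 2.17). SOCS3, which blocks cytokine receptor signals, had a ratio of 2.01 (1.93 to 2.10). NFKBIA, the main cytoplasmic inhibitor of NF-kB, was at 65.5 and 82.0, and the deubiquitinase gene CYLD at 6.80 and 5.19. Of 11 transcription factors 7 were above CT (median 0.10), against the same 62.4% of all genes below it. Higher by 1.5-fold was 1, beside the same 2.68% of all genes. That 1 was FOS, at 47.1 and 85.3. IRF7, the interferon regulatory factor below TLR7, was at 56.9 and 64.1, IRF5 at 3.30 and 4.19, and ATF3, a repressor of cytokine genes, at 8.15 and 6.49.

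Over the 8 pathway lists, 83 entries passed the minimum. In MP 8 of them were higher by 1.5-fold or more and 0 lower, against 2.68% and 1.81% of all genes on the same scale. The 8 include IL8L1, which passed the minimum only through its MP level. The lists were chosen with earlier results of these data known, so this comparison is no test of the pathway. The median over the 83 was -0.05, close to the -0.07 of all genes.

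**Figure D5:**
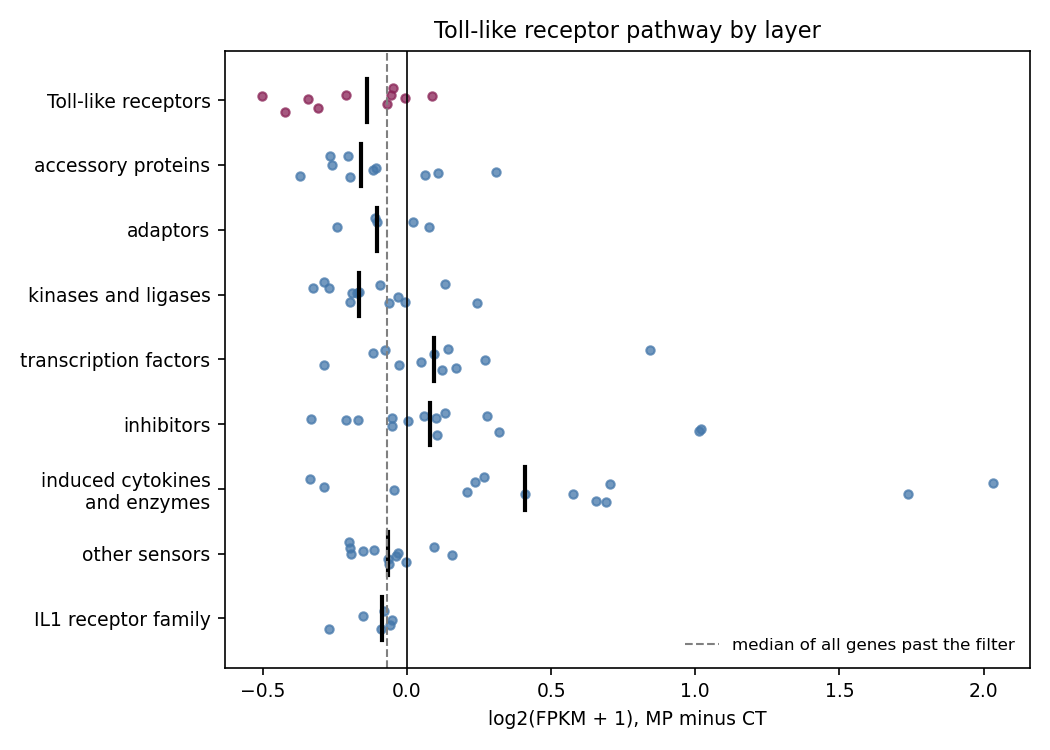
Difference of MP minus CT in log2(FPKM + 1) (x axis) for each gene past the minimum in the receptor family and in 8 pathway lists, with black bars for medians and a dashed line for the median of all genes (-0.07). Receptors (-0.14), accessory proteins (-0.16) and kinases and ligases with their partner proteins (-0.17) have medians left of the line. Induced cytokines (0.41), transcription factors (0.10) and inhibitors (0.08) have medians right of zero.

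Other sensors of microbes and relatives of the receptors showed small differences. Of 12 cytoplasmic and soluble sensors 10 were below CT (median -0.06), and 5 with median-of-ratios scaling. NOD1, a sensor of bacterial cell wall, was at 4.96 and 4.21, NLRC3 at 22.5 and 19.5, and the RNA-activated kinase gene EIF2AK2 at 15.96 and 13.8. DHX58, a helicase that binds viral RNA, was at 11.1 and 12.5. Of the interleukin 1 receptor family, whose signalling members share the TIR domain, 6 of 6 genes past the minimum were below CT (median -0.09). With median-of-ratios scaling 4 were. The medians of sensors and interleukin 1 receptors were close to the -0.07 of all genes, of which 62.4% lay below CT. IL1R1, the receptor of interleukin 1, was at 2.75 and 2.11, IL1RL1 at 7.26 and 6.43, IL18R1 at 1.98 and 1.80 and the shared subunit gene IL1RAP at 4.44 and 4.15. None of these sensors or interleukin 1 receptors past the minimum reached 1.5-fold on the log2(FPKM + 1) scale. Only 1.81% of all genes were lower and 2.68% higher by that much.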

How the data were processed

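RNA sequencing of ileum covered 6 libraries, 3 per group. Per the labels' protocols, RNA was extracted with TRIzol and the library kit is named as one for small RNA. Tools listed without roles in the submitters' processing notes are fastp 0.18.0, StringTie 1.3.1, HISAT2, Bowtie2 and DESeq2; a genome build is not stated there. The authors deposited, per the file headers, FPKM and an unscaled estimated count per gene and group. Another 4 value columns belong to no sample here and were not used.

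Differences are log2(FPKM + 1), MP minus CT, among genes with a mean FPKM of both groups of at least 1. Mean counts were multiplied by 3 and rounded for the counting intervals (95%, Poisson for levels, conditional Clopper-Pearson for ratios; scipy 1.17.1, pandas 2.3.3). Calculations were tested on simulated data that held counting error only, without variation between birds. With 1 mean per group no test was made. The members and the 16 gene lists were chosen with earlier results of these data known. From each pathway list up to 4 genes with the largest difference past the minimum are named, plus MYD88, TICAM1, LY96, UNC93B1, IRAK4 and TRAF6; other genes were named after their values were seen. Missing symbols were looked up in RefSeq's gene table (GRCg7b), used for names and neighbours only. Alternatives were the pseudocount, the scaling, the minimum and the fold threshold. Protein sequences were not used here.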

Additional observations from a re-analysis of the deposited data

How the results depend on the processing

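No paired analysis was possible because each group has a single column of means. Hence leaving out each library and DESeq2 were not run. All 73 recomputed differences of single receptors moved by less than their counting error. Those with another minimum or none repeat the reported value and could not move. The direction of TLR7, TLR1A, TLR4, TLR5, TLR2B, TLR15 and TLR1B was the same in every setting that measured them, with TLR7 between -0.60 and -0.44. Only the scalings could turn a direction, since the pseudocount and the minimum cannot. TLR21 turned to above CT with median-of-ratios scaling (0.06), upper-quartile scaling (0.03) and library totals (0.02), and TLR3 (0.0015) and TLR2A (0.008) with median-of-ratios scaling. Of the 10 receptors, 1 was lower by 1.5-fold with a pseudocount of 0.1 (TLR7) and 3 were lower at the smaller threshold of 20%. At a minimum mean FPKM of 5, 3 receptors were measured and 2 lay below CT. Of the pathway genes, 5 were 1.5-fold higher at that minimum, where fewer genes are tested, 9 were so with pseudocounts of 0.1 and 0.5 and with median-of-ratios and upper-quartile scaling (8 as reported), and 1 was 1.5-fold lower with a pseudocount of 0.1. Scaling moved the median of all genes by -0.05 to 0.07. Leaving CTSS out of the macrophage list, chosen after seeing the data, turned its summed FPKM ratio from 1.02 to 0.970. Counting error leaves TLR15 the least precise receptor.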
